A study of Homo sapiens with 6 samples.

Results

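Cells take up cholesterol from lipoproteins, free it in lysosomes, move it between membranes and store the excess as esters. The 8 genes described here cover that route in BT-549 cells and were chosen by name for their roles: MYLIP in receptor turnover, the lipoprotein receptors LRP8 and VLDLR, LIPA in lysosomal ester hydrolysis, NPC2 and NPC1 in lysosomal export, STARD4 in transport through the cytosol, and SOAT1 in esterification. They are 8 of the 63140 genes listed for each library, and 8 of 8 were among the 14451 genes with enough counts to be tested. RNA was sequenced from wild type BT-549 cells, an established triple negative breast cancer line, after 24 h in adipocyte conditioned medium (ACM, 3 libraries) or in unconditioned medium (UCM, 3 libraries). The sample labels give ACM at 50%, whereas the paper's supplement gives it undiluted for RNA-seq. ACM was collected from mouse OP9 stromal cells during their differentiation to adipocytes in a medium with insulin, oleate and albumin. That medium also held fetal bovine serum, at a lower share than the growth medium of BT-549 cells. The formula of UCM is not given in the sources used here, so the adipocyte secretions and the components of the medium cannot be told apart.

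Lipoprotein particles bind receptors of the cell surface, are carried to endosomes and end in lysosomes, where acid lipase cleaves their cholesterol esters. NPC2 picks up the freed cholesterol inside the lysosome and passes it to NPC1 in the lysosomal membrane, from where it reaches the plasma membrane and the endoplasmic reticulum. There, a high cholesterol level holds back the SREBP-2 transcription factor, which drives genes of sterol synthesis and uptake, while oxysterols activate the LXR factors, which drive export genes and MYLIP. Cholesterol in excess is esterified by SOAT1 and kept in lipid droplets.

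Library totals ranged from 17135288 to 21053257 expected counts. The labels call the cells epithelial, but epithelial markers were almost absent, with EPCAM at 0 to 2 counts and CDH1 at 8 to 34 counts per library, whereas the mesenchymal marker VIM averaged 3168 CPM in ACM (CPM, counts scaled to the library's size) and 2930 CPM in UCM. Of 8 adipocyte markers, ADIPOQ, LEP, CIDEC and RETN had 0 counts in all 6 libraries, and PLIN1, FABP4 and LPL 0 to 2. The other marker, CFD, had 37 to 55 counts per ACM library against 25 to 33 per UCM library (log2 FC = 0.67, adjusted p = 0.196), and the part of such a difference in the results was not tested. UCM replicates 2 and 3 were more alike than any other pair of one medium, with a chi-square per degree of freedom of 2.35 against 13.2 to 21.4 for the other 5 pairs. Without replicate 1 of both media, a comparison chosen after seeing the data, VLDLR (log2 FC = 0.86, adjusted p = 0.00904) and STARD4 (-1.27, adjusted p = 0.0319) were still called and NPC1 was not (0.78, adjusted p = 0.131). The labels do not say how the replicates were kept apart beyond wells of a plate, so p-values measure the spread between these samples. In bulk RNA, fewer cells of a type and less RNA per cell cannot be told apart.

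Of the 8 genes, 1 was called higher and 1 lower in ACM at an adjusted p at or below 0.05, VLDLR and STARD4. Over all genes tested, 3.35% were called higher and 2.21% lower. The study's rule is an unadjusted p at or below 0.05 and a log2 FC beyond 0.58 up or down. When it was applied to the edgeR values, VLDLR and STARD4 also passed, against 4.12% of all genes higher and 1.71% lower. With DESeq2, the study's tool, NPC1 met the rule too, at a log2 FC of 0.5803 (adjusted p = 0.00255), against 0.5699 with edgeR. The 3 ACM values of CPM lay above the 3 UCM values for 2 of the genes and below them for 4, where 13.9% and 15.1% of all genes did so. The median log2 FC of the 8 was -0.13, beside -0.01 for all genes tested. At an unadjusted p at or below 0.05 alone, 2 of the 8 were higher and 3 lower, where 11.9% of all genes were higher and 11.5% lower. LIPA, NPC1 and LRP8 were among these and did not pass after adjustment, MYLIP had an unadjusted p of 0.0623, and NPC2 and SOAT1 overlapped between media.

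**Figure D1:**
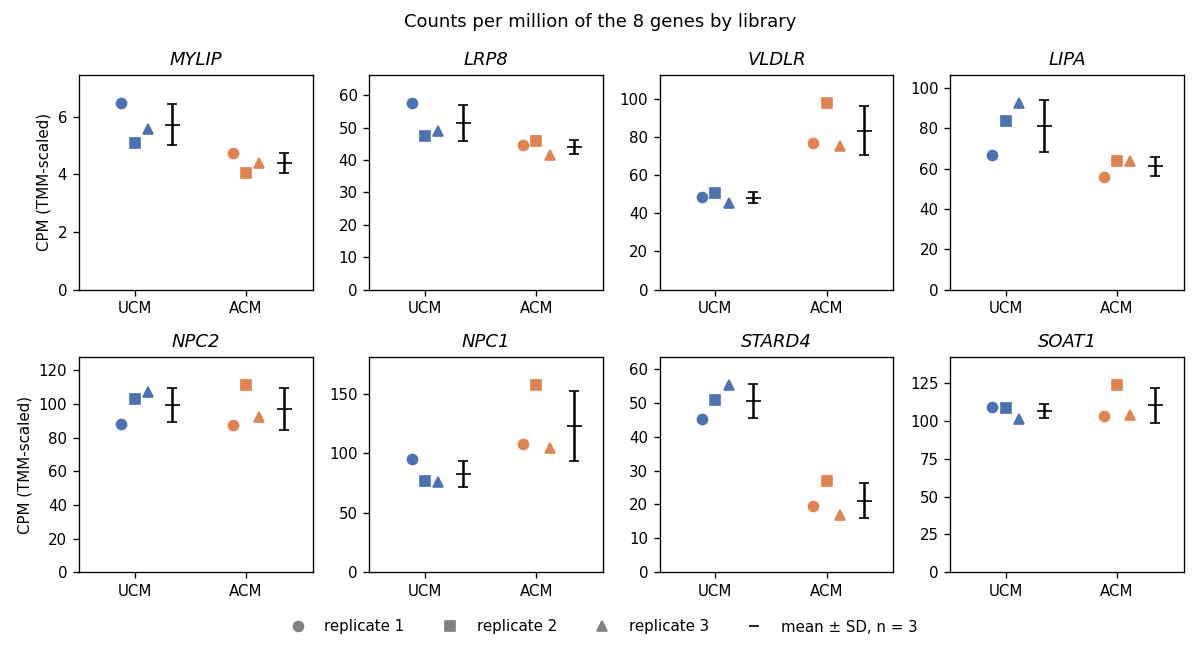
Normalised expression (CPM) of the 8 genes in each library, with points for libraries and the mean and SD of each medium. VLDLR is the gene with ACM libraries of 75.3 to 97.9 CPM above UCM libraries of 45.4 to 50.7 CPM, and STARD4 shows the reverse, with 16.8 to 26.9 CPM in ACM and 45.2 to 55.2 CPM in UCM.

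STARD4, which carries cholesterol through the cytosol between membranes, fell in ACM and was the gene of the 8 with the largest change. The gene lies on the minus strand of chromosome 5, chr5:111496033-111512590 of GRCh38, and its canonical transcript has 6 exons. The exon-free stretch before its RefSeq start and that of MYLIP each hold 2 boxes of the letters CCAAT, the NF-Y motif. Both are shown for that reason, while STARD4 fell and MYLIP did not pass the test. At least 1 such box was found in 34.6% of all promoters of 300 bases. Other promoters of the 8 genes hold the box too, with 2 in 1 of the NPC2 promoters, 3 and 1 in LIPA promoters and 1 in SOAT1. Capitals mark CCAAT or GGGCGG (the Sp1 motif), read on either strand, in RefSeq promoters of build GRCh38.p14. The STARD4 stretch is chr5:111512591-111512785 on the minus strand, from 250 to 56 bases before the start, and the MYLIP stretch is chr6:16128836-16129085 on the plus strand, from 250 bases to 1 base before the start.
STARD4: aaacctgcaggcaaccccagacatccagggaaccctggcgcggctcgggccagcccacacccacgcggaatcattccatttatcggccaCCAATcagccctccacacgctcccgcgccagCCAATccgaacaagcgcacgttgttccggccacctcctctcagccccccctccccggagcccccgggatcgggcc
MYLIP: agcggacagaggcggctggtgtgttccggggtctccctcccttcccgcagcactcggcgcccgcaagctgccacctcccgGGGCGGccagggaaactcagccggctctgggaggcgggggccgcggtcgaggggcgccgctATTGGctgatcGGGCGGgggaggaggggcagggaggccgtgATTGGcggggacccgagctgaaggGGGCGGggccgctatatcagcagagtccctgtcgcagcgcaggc
The CCAAT boxes of STARD4 lie 161 and 130 bases before the start and those of MYLIP 109 and 68 bases before it, the latter on the minus strand. STARD4 also holds 1 GGGCGG box, 52 bases before the start and so outside the stretch shown. That motif was found in 45% of all promoters. A search of the 11 promoters matched to the 8 genes for the sterol regulatory element TCACNCCAC, the E-box CACGTG and the LXR element, on both strands, found 0 of each. Among all 35116 promoters, 1.13% held the first, 7.26% the second and 0.0854% the third. A match or its absence in such a window says nothing of a factor's binding.

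In ACM, STARD4 stood at 19.5, 26.9 and 16.8 CPM, and in UCM at 45.2, 51.0 and 55.2 CPM. Every ACM library lay below every UCM library, by means of 21.1 ± 5.24 and 50.4 ± 5.00 CPM (SD, n = 3 each). The level in UCM was 2.39 times that in ACM (log2 FC = -1.26 ± 0.17 SE, edgeR adjusted p = 0.00615), and STARD4 ranked 107 of the 14451 genes by p-value. TPM, which also corrects for length, gave 12.5, 16.3 and 10.4 in ACM and 27.2, 28.8 and 30.2 in UCM. STARD4 was called in 16 of 16 alternative settings. The antisense gene STARD4-AS1, which overlaps it, had 10.9, 6.76 and 6.41 CPM in ACM and 11.9, 6.51 and 7.81 CPM in UCM (log2 FC = -0.12, adjusted p = 0.842). Whether the counting used strand is not given in the sources used here, so reads of a gene and its antisense partner cannot be told apart.

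The 3 genes whose pattern over the 6 libraries was nearest to that of STARD4, out of 9246 protein-coding genes averaging 10 CPM or more, were SCD, SC5D and CYP51A1. Likeness was the root mean square difference of log2 CPM after centring each gene, and it was 0.127 for SCD, 0.191 for SC5D and 0.201 for CYP51A1. SCD makes monounsaturated fatty acids, and SC5D and CYP51A1 are enzymes of sterol synthesis. Their log2 FC was -1.21, -0.95 and -1.10, and all 3 were called. Genes chosen this way share the step between media, so a like log2 FC largely follows from the choice.

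VLDLR, a receptor of triglyceride-rich particles that carry apolipoprotein E and of reelin, rose in ACM. It lies on the plus strand of chromosome 9, chr9:2621182-2660056, with 19 exons in its canonical transcript. In ACM it had 76.8, 97.9 and 75.3 CPM, and in UCM 48.7, 50.7 and 45.4 CPM. All ACM libraries lay above all UCM libraries, and replicate 2 was the highest in each medium. The means were 83.4 ± 12.6 and 48.2 ± 2.69 CPM (SD, n = 3 each), a 1.73-fold rise (log2 FC = 0.79 ± 0.11 SE, edgeR adjusted p = 0.00401), and VLDLR ranked 68 by p-value. It was called in 16 of 16 alternative settings, with a log2 FC of 0.66 without ACM replicate 2. The overlapping VLDLR-AS1 had 10 to 16 counts per library (log2 FC = 0.03, adjusted p = 0.975). The nearest patterns were those of RSPO2, SYNGR3 and SLC1A4, with root mean square differences of 0.0325, 0.0356 and 0.0412 and a log2 FC of 0.83, 0.76 and 0.78. Here too, the like log2 FC largely follows from the choice. RSPO2 is a secreted activator of Wnt signaling, SYNGR3 a synaptic vesicle protein and SLC1A4 a neutral amino acid transporter.

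LRP8, the apolipoprotein E receptor 2, which also binds reelin, had 44.5, 45.9 and 41.7 CPM in ACM and 57.7, 47.5 and 48.8 CPM in UCM. The libraries of the media did not overlap in CPM, but those of TPM did, and the gap between ACM replicate 2 and UCM replicate 2 was small. The log2 FC was -0.22 ± 0.092 SE (adjusted p = 0.18), and the gene was called in 0 of 16 alternative settings. It was -0.12 without UCM replicate 1 and also -0.12 with the effective length offset. It lies on the minus strand at chr1:53242364-53328469, with 36 annotated transcripts. VLDLR and LRP8 are close relatives, and in ACM the TPM of VLDLR was 2.03, 2.60 and 2.32 times that of LRP8. In UCM it was 1.11, 1.39 and 1.19 times. This ratio was chosen after the values were seen and was not tested. Reelin, their shared ligand outside the lipoproteins, had 0 counts of RELN in all 6 libraries.

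MYLIP, the ubiquitin ligase that marks lipoprotein receptors, among them VLDLR and LRP8, for breakdown, had the lowest level of the 8. The 3 ACM libraries held 100, 72 and 81 of its counts and the UCM libraries 137, 95 and 96, which is 4.75, 4.06 and 4.40 CPM against 6.49, 5.11 and 5.60 CPM. The ACM libraries lay below the UCM libraries, yet the difference did not pass the test (log2 FC = -0.38 ± 0.18 SE, adjusted p = 0.245), nor in any of 16 alternative settings. By TPM it stood at 2.41, 2.05 and 2.29 in ACM and 3.39, 2.58 and 2.87 in UCM, at percentile 21.2 of the genes tested in UCM. The gene is at chr6:16129086-16148248 on the plus strand. Of the 6 genes listed for its ubiquitin transfer, the conjugating enzymes and the deubiquitinase USP2, 0 passed the edgeR test and 0 had an unadjusted p at or below 0.05. The 2 with the largest level, UBE2D3 and UBE2D2, had a log2 FC of -0.11 and -0.02.

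LIPA, the lysosomal acid lipase, was lower in each ACM library than in each UCM library, with 55.6, 63.8 and 63.7 CPM against 66.9, 83.7 and 92.6 CPM. The means were 61.0 ± 4.71 and 81.1 ± 13.0 CPM (SD, n = 3 each), with 1.33 times as much in UCM (log2 FC = -0.41 ± 0.12 SE, unadjusted p = 0.00625, edgeR adjusted p = 0.075). Without UCM replicate 1 the log2 FC was -0.52 with an adjusted p of 0.00521, and without replicate 1 of both media -0.45 with 0.00523. LIPA was called in 5 of 16 settings, and adjusted p-values ran from 1.73e-04 to 0.249. The gene is at chr10:89213569-89414557 on the minus strand. It overlaps IFIT2 and IFIT3, which had 16 to 23 and 28 to 47 counts per library.

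NPC2, the soluble carrier in the lysosome, was the most abundant of the 8 by TPM, with 261.6 to 322.33 in ACM and 264.73 to 318.02 in UCM. Its CPM was 87.7, 111 and 92.1 in ACM and 88.2, 103 and 107 in UCM, overlapping throughout. The log2 FC was -0.04 ± 0.10 SE (adjusted p = 0.879), and its sign turned when ACM replicate 1 or UCM replicate 3 was left out. The gene lies at chr14:74476192-74494177 on the minus strand. NPC1, the membrane transporter that takes over from NPC2, had 107, 157 and 104 CPM in ACM and 94.9, 76.9 and 76.0 CPM in UCM. The ACM libraries all lay above the UCM libraries, with ACM replicate 2 the highest. The log2 FC was 0.57 ± 0.18 SE with an unadjusted p of 0.0141 and an adjusted p of 0.113, and it was 0.35 without ACM replicate 2.

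NPC1 also differed in effective length, a measure that RSEM gives each gene in each library as the abundance-weighted mean over its transcripts of the length open to fragment starts. It was 3496.7, 3716.24 and 3926.82 bases in ACM and 3451.56, 3165.59 and 3262.43 bases in UCM. Each ACM value exceeded each UCM value (exact permutation p = 0.1, the smallest that 3 against 3 allows). STARD4 moved the other way, with 2204.48, 2292.73 and 2328.61 bases in ACM and 2409.45, 2498.45 and 2618.83 bases in UCM (exact permutation p = 0.1). Over all genes, 5.49% were longer and 3.7% shorter in ACM without overlap. TPM divides by this length, and NPC1 overlapped in TPM, at 43.4, 58.4 and 38.3 against 39.9, 34.3 and 33.4. With effective length as an offset, NPC1 had a log2 FC of 0.41 (adjusted p = 0.211) and STARD4 one of -1.11 (adjusted p = 0.0123). The antisense partner RMC1 of NPC1 had a log2 FC of -0.16 (adjusted p = 0.333). NPC1 lies at chr18:23506184-23586506 on the minus strand.

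**Figure D2:**
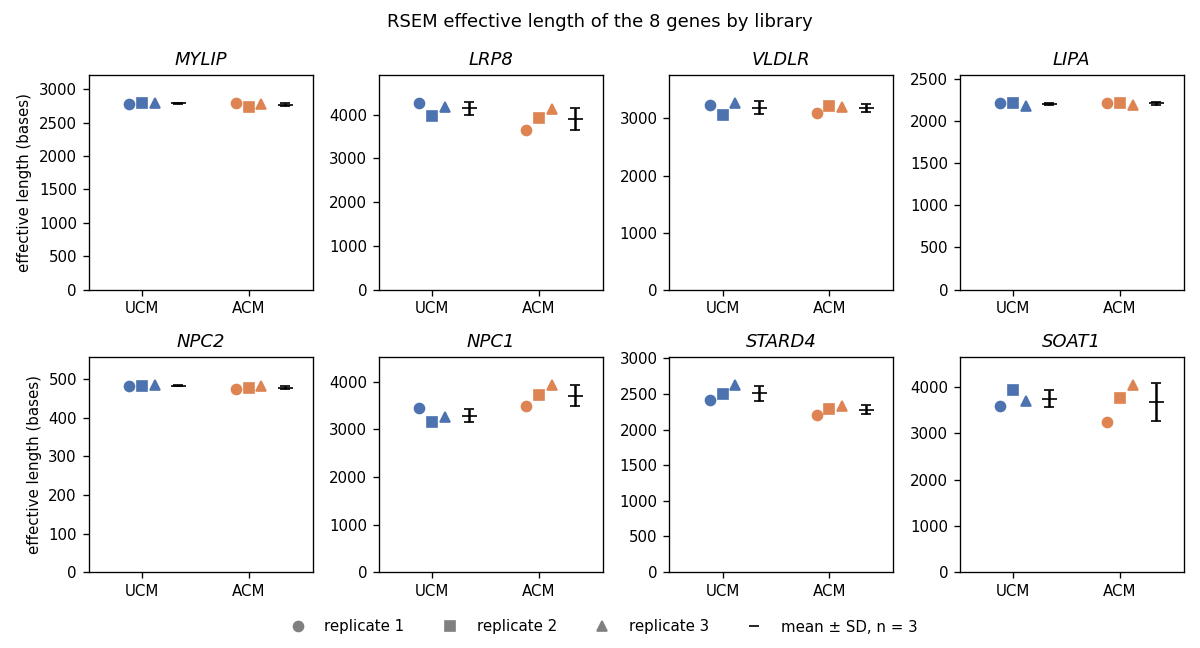
Effective length in bases of the 8 genes in each library, by medium. NPC1 is longer in all 3 ACM libraries (3496.7 to 3926.82 bases) than in the UCM libraries (3165.59 to 3451.56 bases) and STARD4 shorter, at 2204.48 to 2328.61 against 2409.45 to 2618.83 bases.

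SOAT1, which esterifies cholesterol for storage in lipid droplets, had 103, 123 and 104 CPM in ACM and 109, 109 and 101 CPM in UCM. The media overlapped (log2 FC = 0.05 ± 0.083 SE, adjusted p = 0.77), and the sign turned without ACM replicate 2. The gene lies at chr1:179293714-179358680 on the plus strand. No call was made in any of 16 alternative settings, with adjusted p-values of 0.362 to 0.935.

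**Figure D3:**
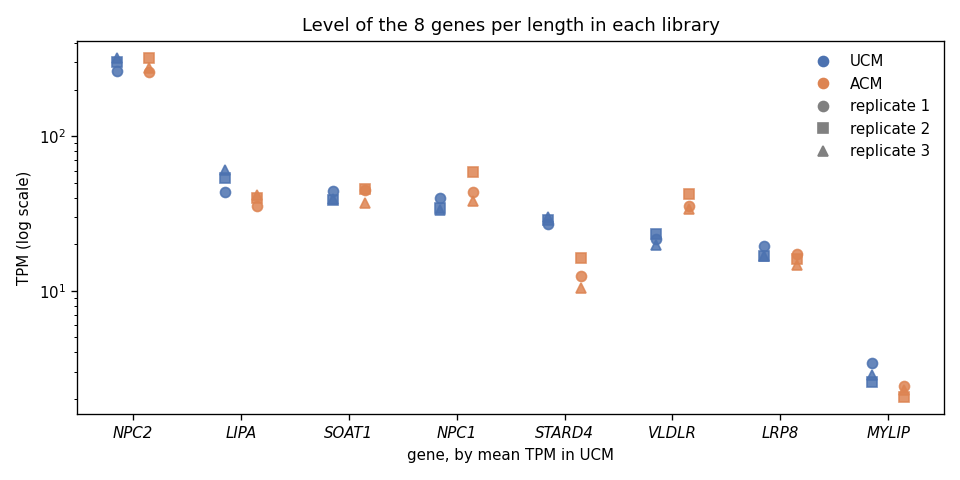
TPM (log axis) of the 8 genes in each library, ordered by mean TPM in UCM. NPC2 stands highest, at 262 to 322 TPM over all libraries, and MYLIP lowest, at 2.05 to 3.39 TPM.

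By TPM in UCM the order was NPC2, LIPA, SOAT1, NPC1, STARD4, VLDLR, LRP8 and MYLIP, at means of 294.79, 52.7, 40.7, 35.9, 28.7, 21.7, 17.7 and 2.95. LIPA and SOAT1 overlapped, as did SOAT1 and NPC1, and the other neighbours did not. In ACM the order was NPC2, NPC1, SOAT1, LIPA, VLDLR, LRP8, STARD4 and MYLIP, at 286.7, 46.7, 42.6, 39.1, 37.0, 16.0, 13.1 and 2.25. Of the neighbours in ACM, NPC1 with SOAT1, SOAT1 with LIPA, LIPA with VLDLR, and LRP8 with STARD4 overlapped. VLDLR exceeded STARD4 in all 3 ACM libraries, at ratios of 2.80, 2.58 and 3.26, and lay below it in all UCM libraries, at 0.799, 0.813 and 0.658. NPC1 over LIPA was 1.22, 1.47 and 0.913 in ACM and 0.909, 0.642 and 0.549 in UCM. These ratios were chosen after the values were seen and were not tested.

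Within the 8, patterns over the 6 libraries were nearest for MYLIP with LRP8 (root mean square difference 0.118), NPC2 with SOAT1 (0.124), LRP8 with SOAT1 (0.166) and VLDLR with NPC1 (0.169), and farthest for VLDLR with STARD4 (1.04). These are descriptions over 6 libraries that share a medium by 3, with no test.

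Other genes of the pathway were read from 8 lists that share no gene with each other and hold none of the 8. Lipoprotein receptors and their adaptors had 15 of 20 tested, 0 called by edgeR, 2 higher and 1 lower at an unadjusted p at or below 0.05, and a median log2 FC of 0.11. The 2 at the largest level, LRP10 and DAB2, had a log2 FC of 0.18 and 0.17, while LRP1, a large endocytic receptor named after its values were seen, had 0.57 (adjusted p = 0.0558). Of the late endosomal and lysosomal cholesterol genes, 8 of 9 were tested and 1 was lower: TMEM97, a sterol-regulated partner of NPC1, with a log2 FC of -0.75 ± 0.13 SE (adjusted p = 0.0158). Its CPM was 30.4, 37.3 and 38.6 in ACM and 48.9, 64.0 and 66.2 in UCM. That list had 2 genes higher and 1 lower at an unadjusted p at or below 0.05. Among sterol carriers and contact proteins, 17 of 19 were tested, with 5 higher and 3 lower at the unadjusted threshold. After adjustment, 1 rose. This was GRAMD1B, which moves cholesterol from the plasma membrane to the endoplasmic reticulum. It had 7.27, 15.4 and 8.42 CPM in ACM and 2.08, 2.20 and 2.51 CPM in UCM (log2 FC = 2.19 ± 0.30 SE, adjusted p = 0.0054). The list of cholesterol ester genes, which also holds the lipid transfer proteins PLTP and CETP, had 5 of 9 tested and 0 called by edgeR. Of these, 1 was higher (PLTP) and 1 lower at the unadjusted threshold. The 2 at the largest level were PLTP (log2 FC = 0.42) and NCEH1 (-0.14), while SOAT2, CES1, AADAC and CETP had 0 counts in all libraries.

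Sterol synthesis and SREBP control had 20 of 26 genes lower and 0 higher, with a median log2 FC of -1.03. Without adjustment, 21 were lower and 2 higher at a p at or below 0.05. MSMO1 and HMGCS1, enzymes of that pathway, had -2.23 and -2.11. Of the LXR factors and targets, 12 of 14 were tested, ABCA1 rose (log2 FC = 3.47, adjusted p = 0.00401) and SCD fell (-1.21, adjusted p = 0.00232), with a median of 0.14. The same list had 5 higher and 1 lower at the unadjusted threshold. ABCA1, the exporter of cholesterol to apolipoproteins, had 26.8, 42.4 and 25.8 CPM in ACM and 4.26, 1.99 and 2.16 CPM in UCM. Lysosomal hydrolases had 32 of 32 tested, with 2 higher, CTSB (0.50) and CTSZ (0.35), and 1 lower, NEU1 (-0.54), and a median of 0.11. Of these 32 hydrolases, 10 were higher and 2 lower at an unadjusted p at or below 0.05. CTSB and CTSZ are cysteine cathepsins, and NEU1 is a sialidase. The 20 lower genes of the sterol list include the SREBP regulator INSIG1 (-1.87) and SREBF2 (-0.61), the gene of SREBP-2, beside synthesis enzymes. The other SREBP control genes of the list were not called: INSIG2 (0.56, adjusted p = 0.116), SCAP (0.08), MBTPS1 (0.17) and MBTPS2 (-0.07). MYLIP, an LXR target outside that list, did not pass the test. Of the 12 tested genes of the LXR list, ABCA1 was the only 1 called higher. Calls in these lists stand beside 3.35% higher and 2.21% lower over all genes, and counts at the unadjusted threshold beside 11.9% and 11.5%, and no list was tested as a set. ACM replicate 2 was the highest of the ACM libraries for VLDLR, LRP8, LIPA, NPC2, NPC1, STARD4, SOAT1, GRAMD1B and ABCA1, and its part in these results was not tested beyond fits without it.

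**Figure D4:**
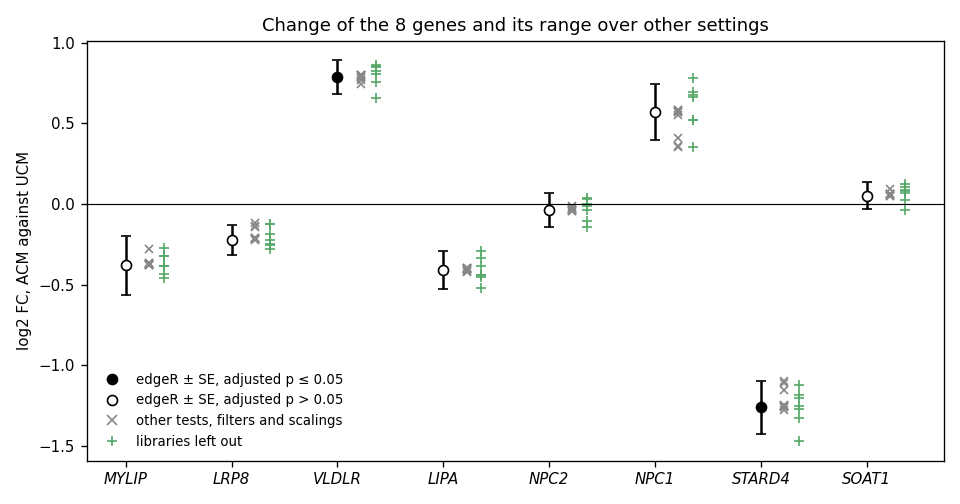
log2 FC of ACM against UCM for the 8 genes, with bars of the standard error, crosses for other tests, filters and scalings, and plus signs for libraries left out. VLDLR (0.79) and STARD4 (-1.26) are called at the adjusted p, and NPC1 (0.57) and LIPA (-0.41) are not.

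**Figure D5:**
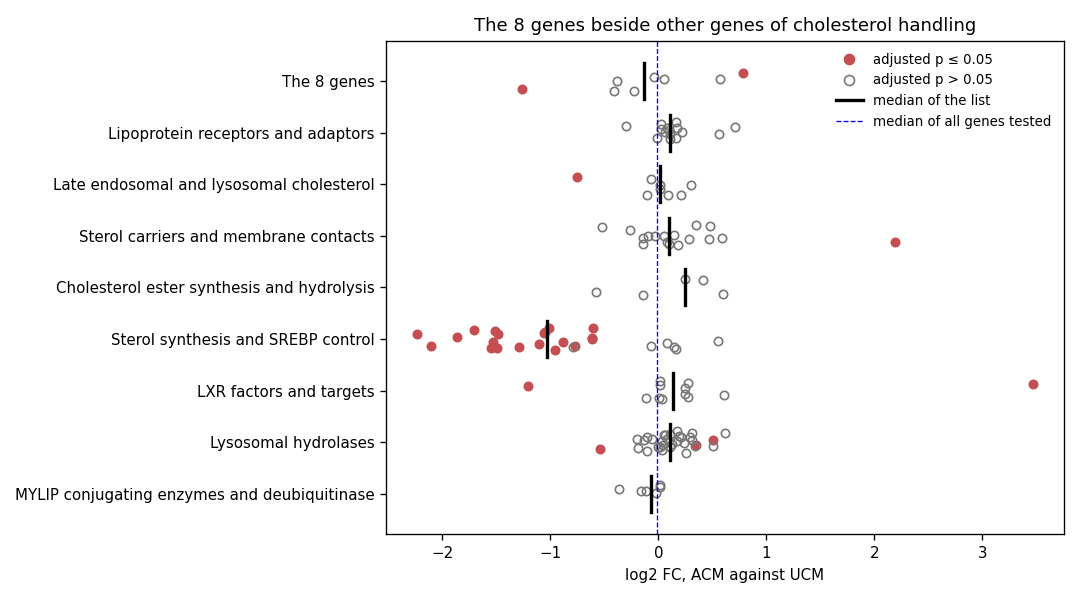
log2 FC of the 8 genes and of each pathway list, 1 point per tested gene, filled where called, with a bar at each median. Sterol synthesis and SREBP control has a median of -1.03, and the other lists lie between -0.06 and 0.24.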

How the data were processed

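RNA-seq of 6 BT-549 libraries was analysed, 3 in ACM and 3 in UCM. Per the paper, polyA-enriched paired reads passed through Trim Galore, STAR (GRCh38) and RSEM, and versions, annotation and strand setting are not given in the sources used here. The authors deposited for each library RSEM's expected counts, which share reads between genes they fit and are not scaled for depth. The authors also deposited TPM, scaled by effective length and to a fixed library sum, and effective length. Their table of baseMean, log2 fold change, standard error, Wald statistic, p and adjusted p was not used. Identifiers of 61547 of 63140 genes matched GENCODE 44, and 599 had no symbol.

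Expected counts were rounded and tested with edgeR 4.0.16 in R 4.3.3 (TMM, filterByExpr, robust quasi-likelihood fit, medium as the only term), with Benjamini-Hochberg adjustment over the 14451 genes tested, at a threshold of 0.05. The coefficient of biological variation was 0.115, and the fit was tested on simulated data. CPM used TMM library sizes. Effective lengths were compared by an exact two-sided permutation test. Same-numbered libraries deviated with correlations of 0.318, 0.0347 and 0.177, and different-numbered ones with -0.314 to 0.196. These values do not settle whether numbers are pairs. No shared origin of numbers is stated, so the main fit did not pair them, and the replicate block is an alternative. Motifs were searched in RefSeq promoters.

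The genes and lists were chosen with earlier results of these data known. The text names the 8 genes, the 3 nearest in pattern to each called gene, and from each list up to 2 increases and 2 decreases called, or else up to 2 of the largest level. Some list genes are named outside this rule, among them LRP1, INSIG1, INSIG2, SREBF2, SCAP, MBTPS1 and MBTPS2. Alternatives were RLE factors, DESeq2 1.42.0, filters of at least 1 count in total or 10 counts in every library, limma 3.58.1 on log2 TPM with 1 or 0.1 added, an effective length offset, a non-robust fit, the replicate block, each library left out, and, chosen after seeing the data, replicate 1 of both media left out.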

Additional observations from a re-analysis of the deposited data

How the results depend on the processing

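VLDLR and STARD4 kept their direction and their call in all 16 alternatives, with a log2 FC of 0.66 to 0.86 and -1.47 to -1.10. The count of the 8 genes called higher was 2 with DESeq2 and with the filter of at least 1 count. The count called lower was 2 with DESeq2, with the filter of at least 1 count and with the replicate block, and 1 to 2 when libraries were left out, being 2 without UCM replicate 1 and without replicate 1 of both media. The added gene was NPC1 among the higher and LIPA among the lower. Leaving out single libraries moved the log2 FC of NPC2 between -0.14 and 0.040, reversed without ACM replicate 1 (0.040) and without UCM replicate 3 (0.032), and that of SOAT1 between -0.039 and 0.10 (0.13 without replicate 1 of both media), reversed without ACM replicate 2 (-0.039). The cause was not tested.

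Over all genes, 484 were called higher and 320 lower. These became 726 and 420 with DESeq2, 1045 and 679 with the filter of at least 1 count, 230 and 132 with log2(TPM + 1), 272 and 134 with the effective length offset, 909 and 703 with the replicate block, 1017 and 726 without replicate 1 of both media, 197 and 87 without ACM replicate 2, 125 and 70 without UCM replicate 2, and 156 and 62 without UCM replicate 3. The replicate block, with numbers that share no stated origin, also called LIPA (adjusted p = 0.00642). ACM replicate 1 correlated best with UCM replicate 1 (0.318), ACM replicate 2 with UCM replicate 2 (0.0347) and ACM replicate 3 with UCM replicate 2 (0.196). MYLIP had the fewest counts of the 8, at 72 to 137 per library.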
